A study of Mus musculus with 8 samples.

Results

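Matricellular proteins are secreted glycoproteins that sit in the extracellular matrix and steer how cells attach, migrate and assemble collagen, rather than bearing load themselves. Most are scarce in the adult heart and are known to be made by activated fibroblasts and inflammatory cells after injury. Transcripts of 10 genes of this kind were examined on the arrays, namely periostin (Postn), Sparc, the thrombospondins Thbs1, Thbs2 and Thbs4, osteopontin (Spp1), tenascin C (Tnc), Cilp, Cthrc1 and fibronectin (Fn1). They were found as rows of the deposited table whose probe carried a single one of these gene symbols, which gave 9 of 33600 probes, 1 for each of 9 genes, out of 13661 genes named on the array. No row carried the symbol Spp1 in the annotation used, so Spp1 was not analysed here. Of the 9 probes, 8 had enough values to be tested.

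Whole hearts were taken from C57Bl/6 mice that were 8 to 10 weeks old. In the infarcted group of 4 mice the left coronary artery was ligated permanently at its descending branch, and in the sham control group of 4 mice the suture was passed without being tied. All 8 mice had a thoracotomy, and the labels put a reference RNA of pooled mouse tissues in the other dye on every array. How long after ligation the hearts were taken is not given in the sources used here. A whole infarcted heart holds injured and surviving tissue together. Levels below are log2 signals scaled to the median of a printed block of 700 spots on the same array, so that 0 is the median spot, and differences are infarcted minus sham control. The deposited values hold 1 dye channel, which is taken here to be the heart RNA. In whole-heart RNA, more cells of a type and more RNA per cell cannot be told apart.

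Values were present for 21916 to 23655 spots on the infarcted arrays and 19704 to 24819 on the sham arrays, and the 99th percentile of the levels was 5.05 to 5.24 on the infarcted arrays and 5.65 to 6.31 on the sham arrays. Heart muscle genes were bright, as for Pln, the regulator of the sarcoplasmic calcium pump, with mean levels of 6.57 in infarcted and 6.30 in sham hearts over 3 values each, although 3 of 10 heart muscle markers on the array had enough values to be tested. Over all probes, 157 of 20561 (0.764%) passed the limma test at an adjusted p under 0.05, of which 13 were higher in infarcted hearts.

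None of the 8 matricellular probes passed that test, where 0.764% of all probes did. All 8 differences were above 0 with a median of 0.58, whereas 43.2% of all probes had a difference above 0 and their median was -0.07. At an unadjusted p under 0.05, 3 of the 8 (Postn, Thbs2 and Cthrc1) stood higher in infarcted hearts, against 3.67% of all probes. Every infarcted value lay above every sham value for 2 of the 8 (Thbs2, and Cthrc1 with 3 sham values), against 2.79% of all probes. The genes were chosen with earlier results of these data known. The shares of all probes are therefore given as a description and not as a test of the list. Each gene rests on 1 spot per array, so a difference at that spot cannot be told apart from one in the transcript.

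**Figure D1:**
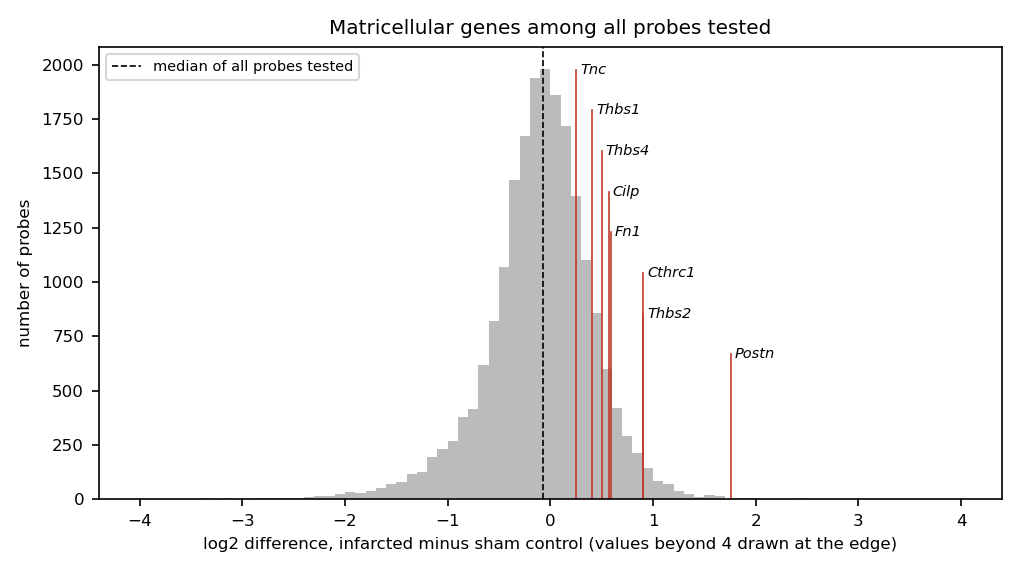
The grey histogram gives the log2 difference, infarcted minus sham control, of the 20561 probes tested, with the number of probes on the vertical axis, and red lines mark the 8 matricellular probes. All 8 lines stand to the right of the dashed median of all probes at -0.07, with Tnc nearest to it at 0.25 and Postn farthest at 1.76.

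Windows of RefSeq sequence upstream of annotated transcription starts (build GRCm38.p6, 250 bases before the start) were available for 7 of the 10 genes, as 10 windows, because Postn, Tnc and Spp1 each had 2 starts. Of the 10 windows, 7 belong to 5 of the tested genes (Postn, Tnc, Cilp, Thbs2 and Thbs4) and 3 to Spp1 and Sparc, for which there is no difference. Both strands were searched for TATATAA, a form of the TATA box, and for CAGAC, the core of the Smad-binding CAGA box. They were also searched for TGANTCA with any base at N, a pattern that includes the site of AP-1 factors but is wider. Among the 7 windows of tested genes, TATATAA was in 3, against 3.04% of 32851 windows of all genes, TGANTCA was in 0, against 6.75%, and CAGAC was in 4, against 42.2%. Of the windows of Spp1 and Sparc, 3 of 3 held CAGAC and none held the other motifs. The windows with TATATAA belong to Postn, Tnc and Cilp, and the match began 28, 29 and 30 bases before the start; it is in capitals below. The window of Thbs2, which had no TATATAA, is given beside them because Thbs2 had the smallest p of the genes. All are written 5′ to 3′ in the direction of the gene, from chr3:54360857-54361106 (plus strand, Postn, the downstream one of its 2 annotated starts), chr4:64046937-64047186 (minus strand, Tnc), chr9:65264930-65265179 (plus strand, Cilp) and chr17:14694263-14694512 (minus strand, Thbs2).
Postn: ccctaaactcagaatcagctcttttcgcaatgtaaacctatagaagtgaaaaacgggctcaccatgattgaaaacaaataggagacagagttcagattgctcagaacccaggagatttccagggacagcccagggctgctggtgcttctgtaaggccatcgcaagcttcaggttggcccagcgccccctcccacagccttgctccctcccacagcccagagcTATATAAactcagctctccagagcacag
Tnc: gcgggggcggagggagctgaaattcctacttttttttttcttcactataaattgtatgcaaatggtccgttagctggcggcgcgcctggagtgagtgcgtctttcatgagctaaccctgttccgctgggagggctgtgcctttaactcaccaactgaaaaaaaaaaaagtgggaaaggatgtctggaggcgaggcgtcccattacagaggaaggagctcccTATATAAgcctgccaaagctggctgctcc
Cilp: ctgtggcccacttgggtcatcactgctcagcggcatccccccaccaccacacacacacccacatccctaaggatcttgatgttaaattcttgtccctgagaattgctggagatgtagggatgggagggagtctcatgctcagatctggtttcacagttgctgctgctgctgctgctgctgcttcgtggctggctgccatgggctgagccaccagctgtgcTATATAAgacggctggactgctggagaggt
Thbs2: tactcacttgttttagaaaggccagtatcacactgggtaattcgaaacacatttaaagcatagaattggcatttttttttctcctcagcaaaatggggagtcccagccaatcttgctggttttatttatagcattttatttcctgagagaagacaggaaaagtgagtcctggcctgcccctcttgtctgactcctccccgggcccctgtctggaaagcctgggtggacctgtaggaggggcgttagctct
These matches are a description of the letters, and no binding or start site use was measured on the arrays.

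Postn encodes periostin, a matrix protein of activated fibroblasts that binds collagen and integrins and promotes the Bmp1-dependent activation of Lox, which cross-links collagen. Its level was 1.60, 1.20, 2.94 and 3.06 on infarcted arrays 1 to 4, against -0.63, 0.0045, 1.31 and 1.08 on sham arrays 1 to 4. In scanner units, the whole-number signals recovered from the deposited values, the same spot read 1536, 884, 6442 and 4848 on the infarcted arrays and 287, 318, 1481 and 1191 on the sham arrays. Infarcted arrays 3 and 4 stood well above all others. On the block-scaled level infarcted array 2 lay below sham array 3, the one pair by which the groups overlapped, and in scanner units it lay below sham arrays 3 and 4. The mean was 2.20 ± 0.94 in infarcted and 0.44 ± 0.91 in sham hearts (SD, n = 4 each). The difference of 1.76 ± 0.54 (SE) is 3.38-fold, with a 95% interval of 1.47-fold to 7.80-fold, and it did not pass (limma adjusted p = 0.197, unadjusted p = 0.0087). Of all 20561 probes, 26 had a higher difference.

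Cthrc1 encodes a secreted glycoprotein of activated fibroblasts, first described in injured arteries of the rat. Its spot was dim throughout, at -1.81, -1.68, -1.70 and -0.89 on infarcted arrays 1 to 4 and at -2.52, -2.57 and -2.18 on sham arrays 1, 3 and 4, with no value on sham array 2. All infarcted values lay above all sham values. Infarcted array 4 stood apart from its group. The difference was 0.90 ± 0.29 (SE; n = 4 infarcted and 3 sham), or 1.87-fold with a 95% interval of 1.18-fold to 2.96-fold, and it did not pass (limma adjusted p = 0.236). The signals were 146 to 284 scanner units on infarcted and 81 to 106 on sham arrays, where the lowest signal of any spot was 42. Of the values on each array, 17.5% to 31.3% were dimmer on infarcted and 3.52% to 7.17% on sham arrays.

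**Figure D2:**
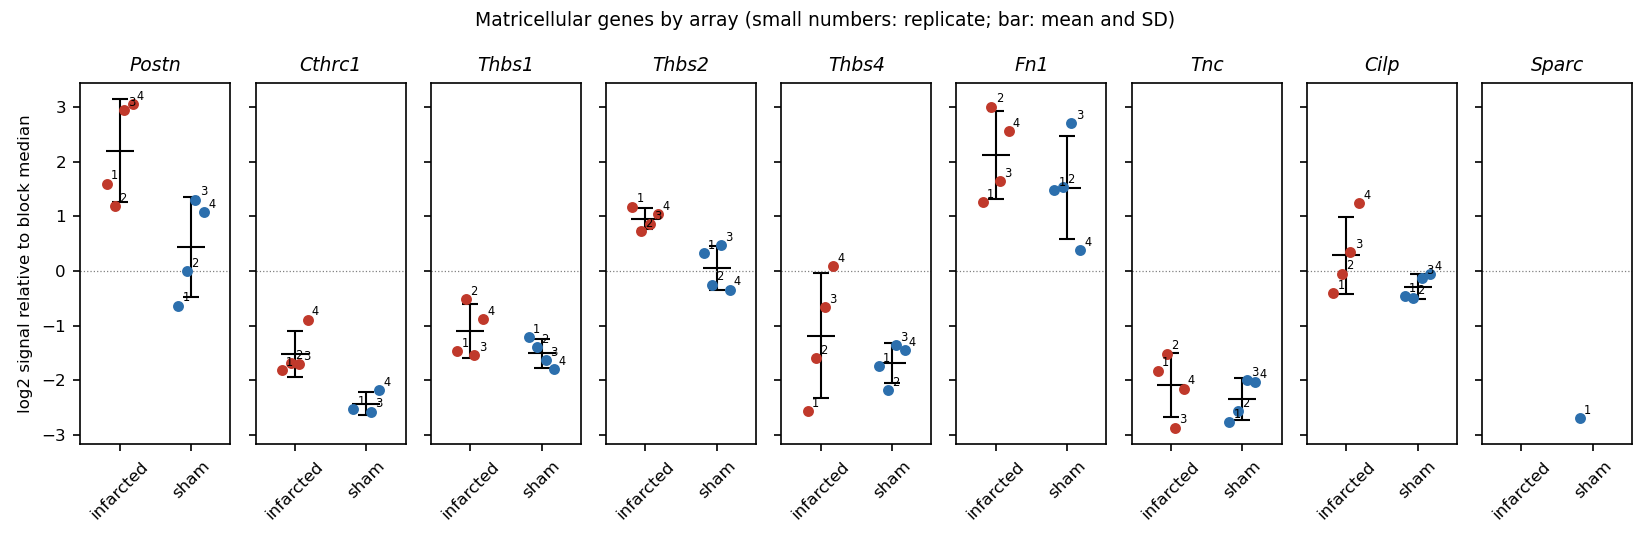
Each point is 1 array, with its replicate number, and gives the log2 signal relative to the block median on the vertical axis, with infarcted hearts in red at left and sham control hearts in blue at right of each panel; bars are the mean and SD where more than 1 value exists. The groups are apart for Cthrc1 and Thbs2, overlap by one pair of arrays for Postn, and Sparc has a single sham point.

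The thrombospondins are a family of oligomeric glycoproteins that bind collagens, integrins and, for some, Cd47 and Cd36. Thbs2, which regulates collagen fibril assembly and restrains vessel growth, was at 1.18, 0.74, 0.87 and 1.04 on infarcted arrays 1 to 4 and at 0.33, -0.25, 0.47 and -0.34 on sham arrays 1 to 4. The groups did not overlap, and the infarcted values lay within a narrow range. The mean was 0.96 ± 0.19 in infarcted and 0.05 ± 0.41 in sham hearts (SD, n = 4 each). The difference was 0.90 ± 0.26 (SE), or 1.87-fold with a 95% interval of 1.26-fold to 2.77-fold, with an unadjusted p of 0.0053 and a limma adjusted p of 0.161. Without sham arrays 2 and 4, the 2 with the fewest values, it was 0.56.

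Thbs1, an activator of latent TGF-beta and a brake on vessel growth, was at -1.46, -0.51, -1.53 and -0.88 on infarcted arrays 1 to 4 and at -1.21, -1.39, -1.63 and -1.79 on sham arrays 1 to 4. Infarcted arrays 2 and 4 lay above the sham range and the other 2 lay within it. In scanner units the spot was dim, at 141 to 254 on infarcted and 101 to 270 on sham arrays, and highest on sham array 1. The difference was 0.41 ± 0.28 (SE), with a 95% interval of -0.22 to 1.04 (limma adjusted p = 0.616), and it was 0.21 without infarcted array 2. Thbs4, known for its induction in overloaded heart muscle, was at -2.56, -1.60, -0.66 and 0.09 on infarcted arrays 1 to 4 and at -1.74, -2.18, -1.35 and -1.45 on sham arrays 1 to 4. The infarcted arrays thus held both the lowest and the highest values, with an SD of 1.15 against 0.37 in sham hearts. The signals were 75 to 500 scanner units on infarcted and 98 to 218 on sham arrays. The difference was 0.50 ± 0.50 (SE), with a 95% interval of -0.62 to 1.62 (limma adjusted p = 0.749). Without infarcted array 4 it was 0.08, without infarcted array 3 it was 0.32, and without infarcted array 1 it was 0.96.

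Fn1 and Tnc encode adhesion glycoproteins. Fibronectin forms the provisional matrix on which wound cells migrate, and its probe was at 1.27, 3.01, 1.64 and 2.56 on infarcted arrays 1 to 4 and at 1.48, 1.54, 2.71 and 0.39 on sham arrays 1 to 4. The groups overlapped over most of their range, with sham array 4 lowest on the block-scaled level. In scanner units that spot read 662, above 508 on infarcted array 1 and 548 on sham array 1. The block medians were 505.5, 211 and 196 on these arrays. The difference was 0.59 ± 0.52 (SE), with a 95% interval of -0.56 to 1.74 (limma adjusted p = 0.703), and it moved in both directions with single arrays. It was 0.98 without sham array 3, 0.29 without infarcted array 2, 0.21 without sham array 4 and 0.02 without sham arrays 2 and 4.

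Tenascin C loosens cell adhesion in remodelling tissue and is scarce in the healthy adult heart. Its probe was at -1.82, -1.51, -2.86 and -2.15 on infarcted arrays 1 to 4 and at -2.77, -2.56, -1.99 and -2.03 on sham arrays 1 to 4. Infarcted arrays 1 and 2 lay above the sham range, and infarcted array 3 lay below it. The signals of 76 to 166 scanner units on infarcted and 75 to 128 on sham arrays were dim, with 2.47% to 22.3% of the array's values below them on infarcted and 4.05% to 14.0% on sham arrays. The difference was 0.25 ± 0.33 (SE), with a 95% interval of -0.48 to 0.98 (limma adjusted p = 0.82), an interval that leaves room for nearly a doubling of this signal. It was 0.51 without infarcted array 3, 0.16 without infarcted array 1, 0.11 without sham array 1 and 0.06 without infarcted array 2.

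Cilp, a protein of cartilage and of cardiac fibroblasts that binds TGF-beta, was at -0.40, -0.05, 0.35 and 1.25 on infarcted arrays 1 to 4 and at -0.46, -0.49, -0.13 and -0.05 on sham arrays 1 to 4. Infarcted arrays 3 and 4 stood above all sham arrays, infarcted array 2 was level with the highest sham array, and infarcted array 1 stood within the sham range. The difference was 0.57 ± 0.34 (SE), with a 95% interval of -0.20 to 1.33 (limma adjusted p = 0.554), and 0.25 without infarcted array 4. Sparc, a collagen-binding protein needed for a mature scar, had a value on 1 array alone, -2.69 on sham array 1 or 80 scanner units, and was not tested. A missing value is not read as a low level.

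**Figure D3:**
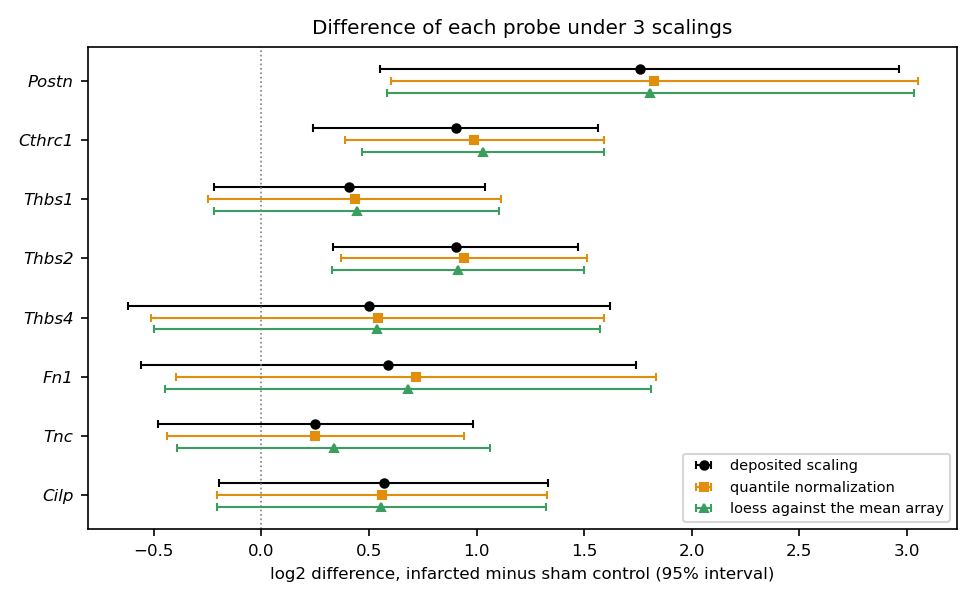
The log2 difference, infarcted minus sham control, of each of the 8 probes is drawn on the horizontal axis with its 95% interval, with the deposited scaling in black, after quantile normalization in orange and after loess against the mean array in green. The intervals of Postn, Cthrc1 and Thbs2 lie above 0 and those of the other 5 probes include 0, under each of the 3 scalings.

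The differences of the 8 genes thus had 1 sign, but the arrays behind them were not the same. Infarcted arrays 3 and 4 were the 2 highest infarcted arrays for Postn, Thbs4 and Cilp, infarcted arrays 2 and 4 for Thbs1 and Fn1, infarcted arrays 1 and 2 for Tnc, and infarcted arrays 1 and 4 for Thbs2. Likeness to Postn was measured as the root mean square difference between 2 probes over the 8 arrays, after each was centred on its own mean. Among 8783 genes with a complete probe, Cilp ranked 73 (0.81), Thbs4 137 (0.85) and Thbs2 409 (0.95). Tnc ranked 3477 (1.21), Thbs1 3736 (1.23) and Fn1 4228 (1.25). The measure was not scaled for the size of the changes, so a probe that hardly varied can rank above one that varied widely. A middle rank is therefore no sign of shared variation with Postn. Cthrc1 had no value on 1 array and was not ranked.

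The 5 genes nearest to Postn were Ddx6 (0.49), an RNA helicase, Pcbp3 (0.57), an RNA-binding protein, Nppa (0.60), the atrial natriuretic peptide, Gp1bb (0.61), a subunit of the platelet receptor for von Willebrand factor, and Rabep1 (0.61), an endosomal effector of Rab5. Nppa, made by stretched heart muscle, was at 4.99, 4.0, 5.93 and 5.92 on infarcted arrays 1 to 4 and at 2.40, 4.32, 5.65 and 4.94 on sham arrays 1 to 4. Like Postn it was lowest on sham array 1 and highest on infarcted arrays 3 and 4. These genes were chosen for following Postn over the same arrays, so their differences are a description with no test. They ran from 0.88 (Nppa) to 1.34 (Pcbp3) with the deposited scaling, by the probe nearest to Postn. Rabep1 had 1.11 by that probe and 0.71 with the probes of the gene averaged. Nppa had 1.59 after quantile normalization and after loess, the highest of the 5, and 1.32 without sham array 3 and 0.24 without sham array 1. Ddx6, with a difference of 1.07, had 0.61 without sham array 1 and 1.46 without sham array 3.

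**Figure D4:**
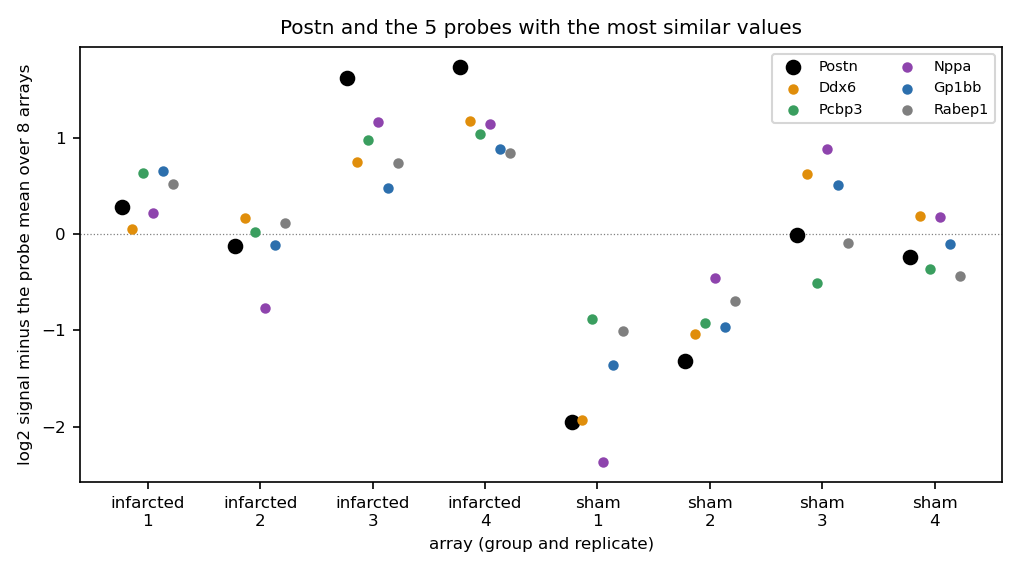
Points give the log2 signal of Postn (large black) and of its 5 nearest genes on each of the 8 arrays, after subtracting each probe's mean over the arrays, with infarcted arrays at left and sham arrays at right. Sham array 1 is the lowest point of Postn, Ddx6, Nppa, Gp1bb and Rabep1, and infarcted array 4 is the highest of Postn, Ddx6, Pcbp3, Gp1bb and Rabep1.

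Other matricellular genes showed no common direction. Of 32 such genes, 25 were on the array and 21 were tested, through 27 probes; 15 probes stood higher and 12 lower in infarcted hearts, with a median of 0.14 (17 higher and a median of 0.24 after quantile normalization), and 0 passed limma (3 at an unadjusted p under 0.05, where all probes gave 12.5%). Ccn5, a CCN family member without the C-terminal domain of the others, had the smallest p. It was at -0.25, -0.33, 1.82 and 2.16 on infarcted arrays 1 to 4 and at -1.60, -1.91, -1.76 and -0.76 on sham arrays 1 to 4. The groups did not overlap, and infarcted arrays 3 and 4 were high, as for Postn. The difference was 2.36 ± 0.58 (SE, limma adjusted p = 0.109). Comp, a thrombospondin of cartilage and tendon, was at 1.70, 0.88, 2.70 and 2.99 on infarcted arrays 1 to 4 and at 1.18, 0.43, 1.23 and 0.27 on sham arrays 1 to 4, a difference of 1.29 ± 0.46 (adjusted p = 0.272). Vtn, the plasma adhesion protein vitronectin, had a difference of -0.77 ± 0.26 (adjusted p = 0.251).

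Receptors that bind these proteins gave 11 probes higher and 10 lower over 15 of 16 genes tested, with a median of 0.11, and 0 of 21 passed limma (1 at an unadjusted p under 0.05). After quantile normalization 16 of the 21 were higher, with a median of 0.35, while the median of all probes became 0.01. Cd47, a receptor of Thbs1, had a difference of 0.66 ± 0.27 (SE, adjusted p = 0.343) by 1 probe (0.37 without sham arrays 2 and 4) and -0.13 ± 0.25 by the other, which became 0.08 after quantile normalization. Itga5, the fibronectin receptor subunit, had 1.28 ± 0.64 (adjusted p = 0.463), with 0.80 without sham array 1 and 1.88 without sham array 3. Cd36, a receptor of thrombospondins and of fatty acids, had 0.48 ± 0.25 (adjusted p = 0.477) by the probe with the smallest p, while its other 2 tested probes gave -0.27 and -0.37. The signs of the 3 probes differed with the deposited scaling and not with the other 2 scalings, in which they gave 1.28 (adjusted p = 0.079), 0.62 and 0.16 after quantile normalization and 1.28, 0.75 and 0.25 after loess. Without sham arrays 2 and 4 the first gave 0.15.

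Collagens and the proteins that process them gave 7 probes higher and 18 lower in infarcted hearts over 16 of 22 genes tested, with a median of -0.46, where 43.2% of all probes were higher and their median was -0.07. After quantile normalization or loess 10 of the 25 were higher, with medians of -0.18 and -0.16. None passed limma (0 of 25), and 8 stood at an unadjusted p under 0.05 (1 higher and 7 lower), where 12.5% of all probes did. Several probes counted for 4 of the 16 genes, among them Col5a1 and Col5a3, so these are counts of probes and not of genes. Lox, the enzyme that cross-links collagen, was at 0.02, 0.22, 1.11 and 1.57 on infarcted arrays 1 to 4 and at -0.45, -1.38, -0.97 and -0.36 on sham arrays 1 to 4. These groups did not overlap, and the difference was 1.52 ± 0.39 (SE, adjusted p = 0.118). Col5a1 and Col5a3, chains of a collagen that starts fibrils, had -0.85 ± 0.28 and -1.09 ± 0.34 (adjusted p = 0.227 and 0.202) by the probe with the smallest p, and for each gene 1 other probe had a difference above 0 (0.26 and 0.20). Averaged over its probes, Col5a3 had -0.46.

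Genes of TGF-beta signalling, a known inducer of Postn, Fn1 and Tnc, gave 8 probes higher and 10 lower over 14 of 17 genes, with a median of -0.04, and 0 of 18 passed limma (1 at an unadjusted p under 0.05). Ltbp4, which stores latent TGF-beta in the matrix, had a difference of -0.86 ± 0.33 (SE, adjusted p = 0.311), which became -0.37 after quantile normalization and after loess (adjusted p = 0.78 and 0.77). The ligand Tgfb3 had 0.62 ± 0.29 (adjusted p = 0.419). The receptor Tgfbr1 had -0.61 ± 0.34 (adjusted p = 0.519) by one probe and 0.34 by another. The first was -0.29 without sham array 3 and -0.95 without sham array 4.

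Marker genes of other cell types were read beside these values. Macrophage and monocyte markers had 14 of 15 probes higher, with a median of 0.69, and their mean level was 0.70 to 1.22 on infarcted arrays and -0.13 to 0.33 on sham arrays. Fibroblast markers had 6 of 9 probes higher (median 0.35, and 7 of 9 with a median of 0.53 after quantile normalization). Over the 8 of these probes with a value on every array, the mean level was 1.49 to 1.81 on infarcted and 1.30 to 1.50 on sham arrays. Gsn, with 3 sham values, was not among the 8. It went the other way, at -1.10 ± 0.24 (SE, limma adjusted p = 0.0886), with all infarcted values below all sham values. Of the fibroblast probes, only Gsn had an unadjusted p under 0.05. Endothelial markers had 7 of 10 higher (median 0.27), mesothelial markers 3 of 4 (median 0.34), skeletal muscle markers 4 of 4 (median 0.79), and lymphocyte markers 3 of 3 (median 0.02; 2 of 3 after loess). Smooth muscle and pericyte markers had 4 of 11 higher (median -0.36), heart muscle 2 of 3 (median 0.02; 3 of 3 after quantile normalization and loess, with medians of 0.37 and 0.44), and lung epithelium 0 of 4 (median -0.92). The mean level of the lung markers was 2.70, 0.91, 2.66 and 2.40 on sham arrays 1 to 4. On the infarcted arrays it was 1.03 to 1.48. Of 63 marker probes 0 passed limma (15 at an unadjusted p under 0.05, where 12.5% of all probes were). The part of macrophage, fibroblast or lung content in the values of the matricellular genes was not tested.

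**Figure D5:**
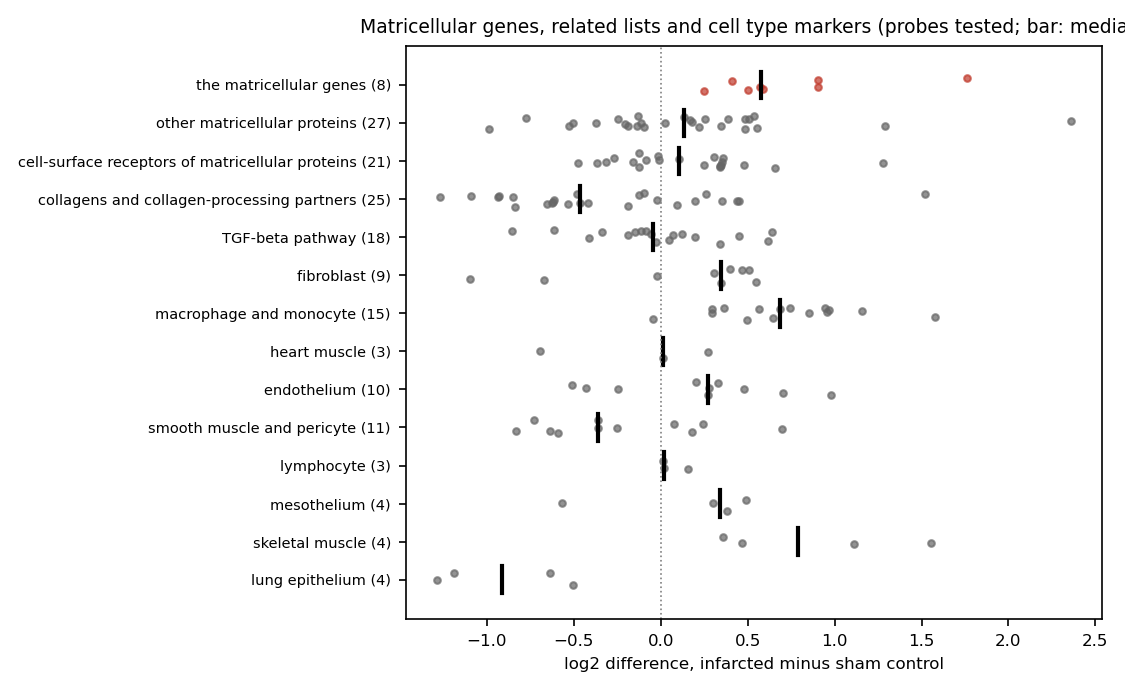
Each point is the log2 difference, infarcted minus sham control, of 1 tested probe, by list on the vertical axis with the number of probes in parentheses, and black bars are medians. The matricellular genes (red, median 0.58) and the macrophage markers (median 0.69) lie mainly to the right of 0, and the collagen list (median -0.46) mainly to the left.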

How the data were processed

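Each heart's cDNA (30 µg RNA) carried Alexa Fluor 647 and a common reference Alexa Fluor 555, with no dye swap, on a spotted array of 70-mer oligonucleotides, per the labels. The deposited log2 values turned into whole numbers from 42 to 65466 (tolerance 0.001) with 1 constant in each of 48 blocks of 700 spots per array, and every block median was 0. They are thus 1 channel over its block median. Which channel, the background correction and the software are not given in the sources used here. Probe names came from platform annotation: 18179 of 33600 probes had 1 symbol, 87 several, and 15334 were not listed. All 18164 Entrez identifiers found in RefSeq had the same symbol there.

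Arrays were centred on their medians (already 0), and probes with at least 3 values in each group were fitted with lmFit and eBayes (limma 3.58.1, R 4.3.3), with Benjamini-Hochberg adjustment over all 20561 probes. The fit was tested on simulated data. The labels give one heart per sample, so p-values measure the spread between hearts and arrays, and 4 arrays per group limit the precision. No scan date or slide batch is given. Correlations between arrays of a group were at most 0.958, so none is a copy. Related and marker lists (4 and 9), named genes (of each related list the 3 with the smallest p, and the 5 nearest Postn) and the 10 members were chosen with earlier results of these data known. The labels do not say whether the replicate numbers pair the hearts. Deviations of same-numbered arrays had correlations from -0.20 to 0.31, and those of differently numbered arrays from -0.20 to 0.33. These values cannot settle whether a pairing existed, and the main fit used none. Alternatives changed the scaling, filters, feature, variance model, block and samples.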

Additional observations from a re-analysis of the deposited data

Results flagged for a closer look

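Among 48 groups of 4 arrays examined for the named probes, 3 held an array far from the other 3, where chance flags about 1 in 20 groups. Cthrc1 was at -0.89 on infarcted array 4, against -1.81 to -1.68 on the other infarcted arrays. Vtn was at 1.72 on infarcted array 1, against 2.34 to 2.45 on the others. Col5a3 was at 1.30 on infarcted array 2, against -0.18 to 0.05 on the others.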

How the results depend on the processing

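Under each alternative that could be fitted, 0 of the matricellular probes passed and each difference stayed above 0. Changes of filter, variance model or averaging of probes cannot move the difference of a gene with 1 probe. The replicate block cannot either where all 8 values are present. The sign under these settings was therefore fixed in advance. Postn ranged from 1.40 to 2.09 (adjusted p from 0.106 to 0.476), Thbs2 from 0.56 to 1.04 and Cthrc1 from 0.69 to 1.18. Cthrc1 could not be fitted with values required on all 8 arrays, and Cthrc1, Thbs1, Thbs4 and Tnc were below 0 in both groups and were left out by the filter on dim probes. The replicate block left Postn at 1.76 (SE 0.26, limma adjusted p = 0.106), where the main fit had an SE of 0.54. Whether its numbers pair the hearts is not known. The count of called probes over the whole table, 157, was less stable: 35 after quantile normalization, 30 after loess, 272 without dim probes, 99 with probes of a gene averaged, 1 with the replicate block and 1225 without sham arrays 2 and 4, while leaving out 1 array gave 3 (infarcted 3) to 732 (sham 4). Signals divided by the array median, a setting chosen after seeing the data, gave 50 and left Postn at 1.93, with Fn1 at 0.35, Cilp at 0.34 and Tnc at 0.09; the cause of these shifts was not tested. Cthrc1 and Tnc were dim on all arrays, and Thbs1 and Thbs4 on most, which limits what the values of these 4 genes can show.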
